A study of Mus musculus with 6 samples.

Results

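The transcripts described here are those of the AP-1 transcription factor, with the FOS family genes Fos, Fosb, Fosl1 and Fosl2 and the JUN family genes Jun, Junb and Jund, together with Egr1 and Atf3. The 9 genes were chosen by name and found by their Ensembl IDs among the 48440 genes of the count table, and all 9 passed the filter on low counts. They were measured in mouse ovarian surface epithelial cells, the single cell layer that covers the ovary, 7 days after the cells had received an adenovirus. The control cells, labelled WT, received Ad-GFP, which carries green fluorescent protein (3 libraries). The other cells received Ad-Cre-GFP, which adds Cre recombinase, and are labelled as Lats1/2 knockout (3 libraries). Both groups therefore share adenovirus and GFP, and Cre exposure and gene deletion cannot be told apart. LATS1 and LATS2 are the Hippo pathway kinases that restrain the coactivators YAP and TAZ. The sources used here do not give the strain, age or number of the animals, nor the share of cells that took up virus.

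AP-1 is a dimer of basic leucine zipper proteins. JUN proteins pair with each other or with a FOS protein, whereas FOS proteins bind DNA only with a partner such as JUN. Fos, Fosb, Jun, Junb, Egr1 and Atf3 are immediate-early or stress-response genes, whose transcripts appear within minutes of growth factor or stress signals and decay quickly, while Jund and Fosl2 are transcribed more steadily in many cells. Fosl1 and Fosl2 encode FRA-1 and FRA-2, which lack the strong activation domain of FOS. EGR1 is a zinc finger factor induced by ERK signalling through SRF and its ELK cofactors, and ATF3 is a stress-induced basic leucine zipper protein that also dimerizes with JUN proteins. AP-1 binds many of the enhancers that TEAD factors occupy with YAP and TAZ, which links it to the Hippo pathway.

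The promoter stretches of Fos, Fosb, Jun and Atf3 are shown because these genes, of the FOS, JUN and ATF families, went in different directions. Each stretch holds the 140 bases before the RefSeq start site (GRCm38.p6), 5′ to 3′ on the gene's strand. Capitals mark the matches found in it.
Fos (chr12:85473750-85473889, + strand): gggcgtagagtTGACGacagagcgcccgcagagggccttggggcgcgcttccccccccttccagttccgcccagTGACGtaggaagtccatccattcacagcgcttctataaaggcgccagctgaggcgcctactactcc
Fosb (chr7:19310046-19310185, - strand): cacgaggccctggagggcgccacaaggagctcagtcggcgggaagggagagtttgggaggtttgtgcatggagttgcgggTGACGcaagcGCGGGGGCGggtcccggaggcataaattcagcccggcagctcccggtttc
Jun (chr4:95052223-95052362, - strand): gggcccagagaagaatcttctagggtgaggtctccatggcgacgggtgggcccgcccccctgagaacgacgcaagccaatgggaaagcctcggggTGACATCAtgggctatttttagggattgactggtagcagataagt
Atf3 (chr1:191183334-191183473, - strand): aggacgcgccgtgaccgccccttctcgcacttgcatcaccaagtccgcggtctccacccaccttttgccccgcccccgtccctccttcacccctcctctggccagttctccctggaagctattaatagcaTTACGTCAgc
RefSeq windows from 250 bases before to 50 bases after the start were searched for 7 of the 9 genes, on both strands. The motifs were TGANTCA (the classical AP-1 site), TGACGTCA (the full cyclic AMP response element), TGACATCA, TTACGTCA, TGACG (the core of a cyclic AMP response element, also contained in TGACGTCA and, on the other strand, in TTACGTCA), the SRF-binding CArG box, the EGR sites GCGGGGGCG and GCGTGGGCG, and GGAATG, the core of TEAD sites. Fos held TGACG at 129 and 66 bases upstream of its start, Fosb at 60 and Junb at 106. Fosb also held GCGGGGGCG at 50 bases upstream, and Fosl2 held it at 79. The RefSeq start of Fosl2 lies 299 bases from the nearest GENCODE transcript start. Jun held TGACATCA, an AP-1-like variant, at 45 bases upstream. Atf3 held TTACGTCA at 10 bases upstream, and the TGACG match within it runs on the other strand. Among all 32851 windows of 300 bases, TGACG was found in 20.8%, GCGGGGGCG in 2.91%, TGACATCA in 3.62% and TTACGTCA in 0.499%. None of the 7 windows held TGANTCA (7.81% of all windows), TGACGTCA (1.79%), the CArG box (1.63%), GCGTGGGCG (0.612%) or GGAATG (14.7%), which says only that these letters are not in these windows. Jund had no match, and its RefSeq start lies 1210 bases from the nearest GENCODE transcript start. A match is a description of letters and not a measured binding site.

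Library totals were 18690235 to 25363462 counts for Ad-GFP and 27734527 to 30304033 for Ad-Cre-GFP. Lats1, the first check of the labels, fell to 23.2% of control (log2 change -2.10 ± 0.04, SE, adjusted p = 5.79e-20) and Lats2 to 76.2% (-0.39 ± 0.03, adjusted p = 3.82e-10); the counts cover whole genes and do not measure the deleted exons. Of 14811 genes tested, 69.8% were called at an adjusted p under 0.05, 34.0% higher and 35.8% lower in Ad-Cre-GFP, and for 73.0% the groups' ranges were separate. All 13 fixed markers of ovarian surface epithelium were detected, among them Krt8, Krt18, Wt1 and Msln, though Lhx9 had at most 15 counts. Every one of the 13 was called, 6 higher and 7 lower in Ad-Cre-GFP. Krt19 (log2 change -1.60), Gata4 (-1.37) and Wt1 (-1.15) fell, while Cdh2 (1.93) and Msln (1.10) rose. Of the markers of other cells, some were at or near 0 and others were detected. Ptprc had at most 4 counts in any library, Cdh5 at most 2, and Lum, Fshr and Cyp19a1 were at 0. The immune markers Cd14 and Cd68 reached 218 and 85 counts, and the endothelial markers Flt1 and Kdr 269 and 64. Levels are given in CPM, counts scaled to a common library size by TMM normalization. The summed level of 6 stromal fibroblast markers, to which Col3a1 gave the most, was 2675 to 2842 CPM in Ad-GFP and 984 to 1045 CPM in Ad-Cre-GFP, and all 5 tested fell. The summed level of 6 granulosa markers was 134 to 146 CPM in Ad-GFP and 324 to 337 CPM in Ad-Cre-GFP. Nearly all of it was Inhbb, which rose from a mean of 135 to 326 CPM (log2 change 1.27 ± 0.03, adjusted p = 2.48e-18); of the 3 other tested granulosa markers Foxl2 and Amh rose, and Inha fell (-1.52, adjusted p = 7.9e-07). The part of these shifts in the results below was not tested, and in bulk RNA fewer cells of a type and less RNA per cell cannot be told apart.

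Most AP-1 transcripts were lower in the knockout libraries. Of the 9 genes, 6 fell (Fos, Fosl2, Jun, Junb, Jund and Egr1), 2 rose (Fosb and Atf3) and Fosl1 was not called, in a table in which 35.8% of genes fell and 34.0% rose. The median log2 change of the 9 was -0.37, beside -0.0065 over all genes tested. For 8 of the 9 no library of a group lay within the range of the other, and with 73.0% of all genes in that state this count is no result about these genes in particular. Ad-GFP replicate 3, the library with the smallest total, was the highest control for all 6 genes that fell and the lowest for Fosb and Fosl1; without it the same 6 fell and the same 2 rose. The changes differed widely in size, from a fall of Egr1 to 24.6% of control to a fall of Junb to 87.9%.

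**Figure D1:**
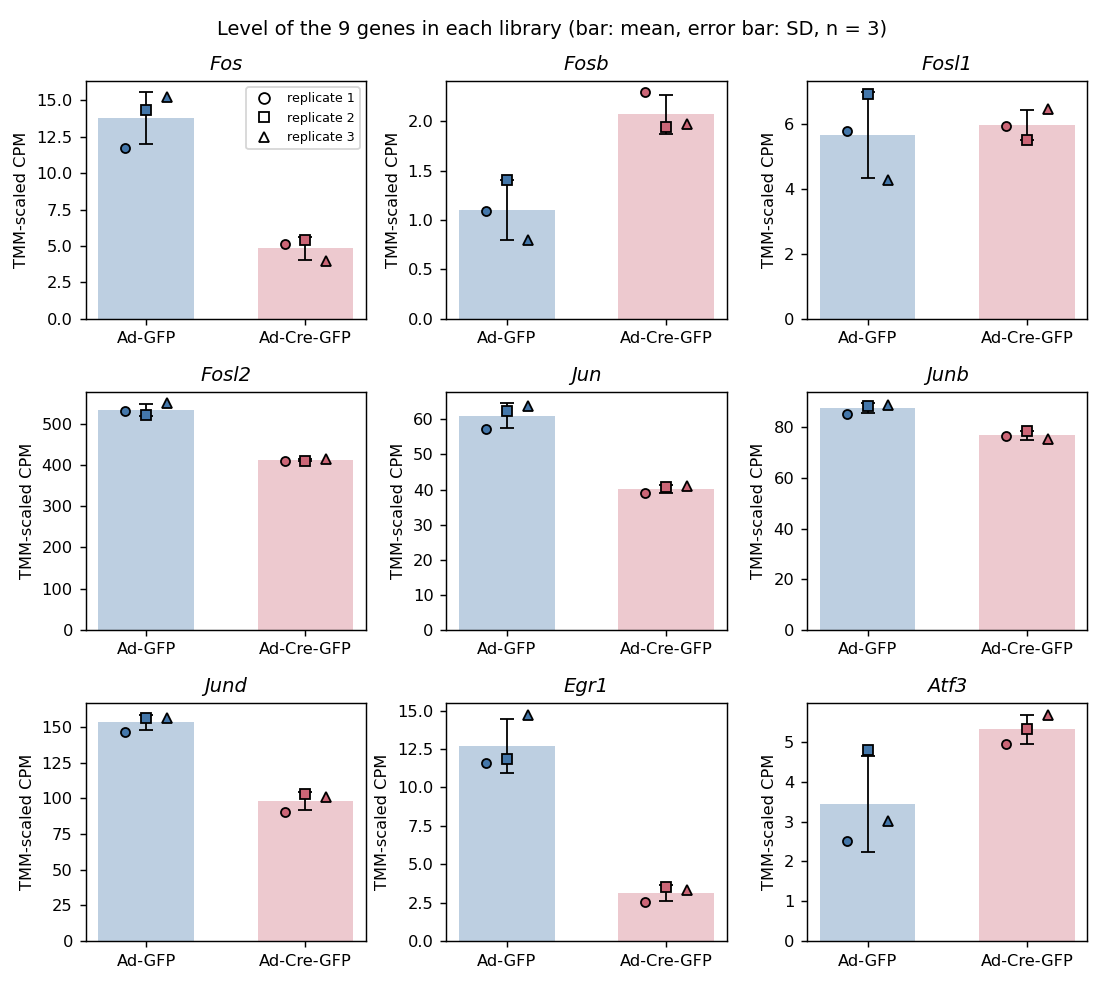
TMM-scaled CPM of the 9 genes (vertical axes, from 0) in the 3 Ad-GFP and 3 Ad-Cre-GFP libraries; points are libraries, bars group means and error bars SD. All Ad-Cre-GFP points lie below all Ad-GFP points for Egr1, Fos, Jun, Jund, Junb and Fosl2, above them for Fosb and Atf3, and among them for Fosl1.

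Egr1 had the largest change of the 9. Its level was 11.6, 11.8 and 14.7 CPM in the Ad-GFP libraries and 2.57, 3.51 and 3.28 CPM in the Ad-Cre-GFP libraries. Every knockout library was thus under the lowest control, and Ad-GFP replicate 3 was the highest. The log2 fold change was -2.01 ± 0.12 (SE, edgeR adjusted p = 6.61e-12), and 2.41% of tested genes had a lower log2 change. Its relatives Egr2 and Egr3 were hardly detected, with at most 6 and 1 counts in any library, and Egr4 had at most 2; none was tested. The corepressors that bind EGR proteins went down as well. Nab1 fell from 173 ± 7.13 to 124 ± 1.09 CPM (SD, n = 3; log2 change -0.47 ± 0.03, adjusted p = 3.65e-11). Nab2, itself an EGR1 target gene, fell from 26.6 ± 1.29 to 23.1 ± 1.18 CPM (-0.20 ± 0.06, adjusted p = 0.00336).

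Among the FOS genes, Fos fell, Fosb rose, Fosl1 was not called and Fosl2 fell a little. Fos, the founding member, was at 11.8, 14.3 and 15.2 CPM in Ad-GFP and at 5.16, 5.42 and 3.94 CPM in Ad-Cre-GFP. The knockout mean was 35.2% of control, a log2 change of -1.50 ± 0.12 (adjusted p = 2.34e-09), with a wide gap between the groups. Fosb, whose protein is closest to FOS, was at 1.09, 1.41 and 0.795 CPM in Ad-GFP and at 2.29, 1.94 and 1.97 CPM in Ad-Cre-GFP. It rose by 0.88 ± 0.21 on the log2 scale (adjusted p = 0.00088), on 15 to 36 raw counts in a control library and 54 to 67 in a knockout library. These are the lowest levels of the 9 genes, and the SE of the Fosb change was the largest of the 9. Leaving out a library moved the change of Atf3 more (0.40 to 0.95) than that of Fosb (0.71 to 1.11).

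Fosl1, a gene often raised with ERK signalling, did not separate the groups. Its levels were 5.79, 6.93 and 4.29 CPM in Ad-GFP and 5.95, 5.52 and 6.46 CPM in Ad-Cre-GFP, and both the highest and the lowest library were controls. The log2 change was 0.05 ± 0.13 (adjusted p = 0.752), with an approximate 95% interval of -0.21 to 0.31. Without Ad-GFP replicate 3, the lowest library, it was -0.10 (adjusted p = 0.476). On the opposite strand, exons of Ccdc85b cover 1163 of the 2033 exon bases of Fosl1, and the counting's treatment of strand is not given, so the count of Fosl1 is uncertain. Ccdc85b itself had 625 to 1248 counts per library, against 81 to 177 for Fosl1.

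Fosl2 was at 531, 521 and 549.9 CPM in Ad-GFP and at 411, 411 and 415 CPM in Ad-Cre-GFP. It fell by 0.37 ± 0.03 on the log2 scale (adjusted p = 2.47e-10), to 77.2% of control, and the libraries within each group were close together. This is a smaller relative change than that of Fos, but in a far more abundant transcript.

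All 3 JUN genes fell. Jun was at 57.2, 62.3 and 63.8 CPM in Ad-GFP and at 39.0, 40.7 and 41.0 CPM in Ad-Cre-GFP, a log2 change of -0.60 ± 0.05 (adjusted p = 1.01e-10). Jund, the steadily expressed member, was at 147, 156 and 157 CPM in Ad-GFP and at 90.7, 103 and 101 CPM in Ad-Cre-GFP, a log2 change of -0.64 ± 0.04 (adjusted p = 2.51e-10). The knockout level was 65.8% of control for Jun and 64.0% for Jund, and in both genes the groups were clearly apart. Junb, which can oppose JUN at shared sites, was at 85.3, 88.3 and 88.9 CPM in Ad-GFP and at 76.8, 78.7 and 75.3 CPM in Ad-Cre-GFP. Its fall was small, -0.19 ± 0.03 (adjusted p = 6.84e-05), though larger than the spread between replicates. Antisense exons of Gm11175 cover 877 of the 1668 exon bases of Jund, and Gm11175 was listed with 0 counts in every library. All exon bases of Gm11175 lie within Jund, so its 0 counts do not tell how reads there were assigned. The count of Jund is therefore uncertain too. Antisense exons of Prdx2 cover 173 bases of Junb and those of Junos 232 bases of Jun. Prdx2 is abundant, at 10753 to 16545 counts per library, and it fell too (-0.75, adjusted p = 1.2e-15), so how far its reads enter the Junb count is not known. Junos had at most 9 counts.

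Atf3 rose from a low level. It was at 2.51, 4.81 and 3.02 CPM in Ad-GFP and at 4.96, 5.32 and 5.69 CPM in Ad-Cre-GFP. The groups did not overlap, but Ad-GFP replicate 2 came close to the lowest knockout library. The log2 change was 0.60 ± 0.18 (adjusted p = 0.00927). It was 0.95 (adjusted p = 7.2e-06) without Ad-GFP replicate 2, and without each of the other libraries in turn it stayed called, with adjusted p up to 0.0471.

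**Figure D2:**
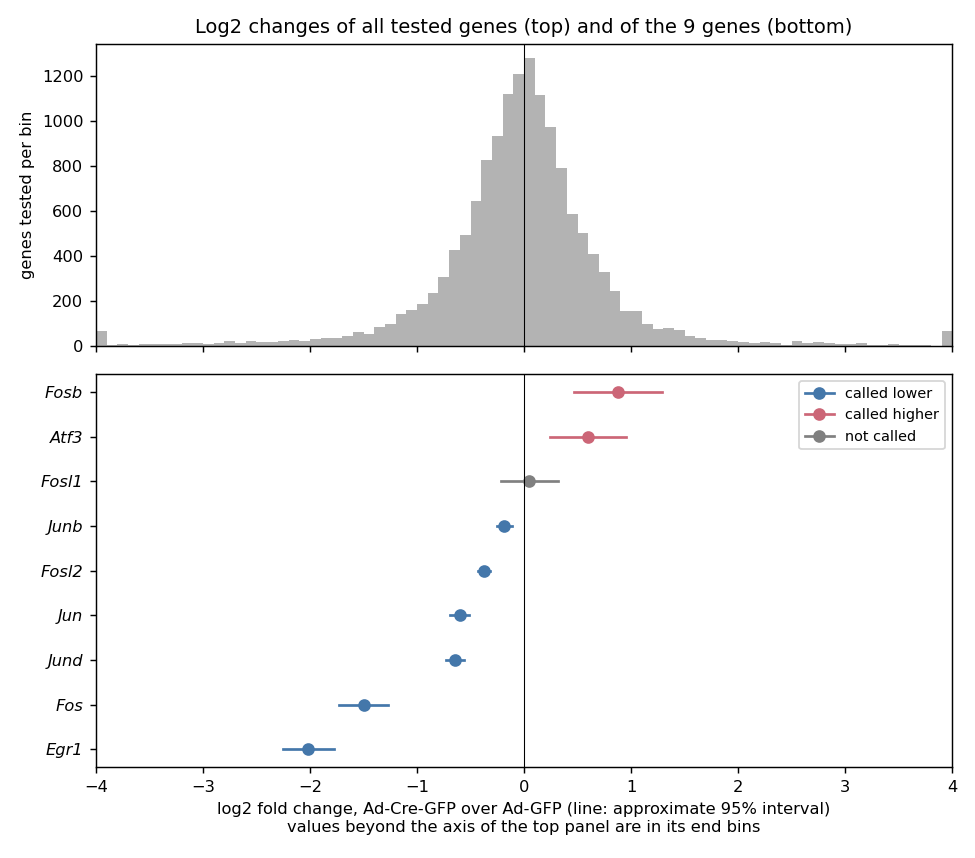
Top: number of tested genes per bin of log2 fold change, Ad-Cre-GFP over Ad-GFP; bottom: log2 fold change of each of the 9 genes (point) with its approximate 95% interval (line), coloured by call. Egr1 (-2.01) and Fos (-1.50) lie in the lower tail of all genes, Fosb (0.88) and Atf3 (0.60) lie above 0, and the interval of Fosl1 spans 0.

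Levels of different genes can be set side by side only per length, as counts per kilobase of annotated exons scaled to the same sum in each library (TPM scale). On this scale the order in Ad-GFP was Jund (237 ± 7.09, SD, n = 3), Fosl2 (143 ± 4.84), Junb (98.3 ± 1.70), Jun (49.5 ± 2.55), Fos (15.1 ± 1.90), Egr1 (7.33 ± 1.03), Fosl1 (7.20 ± 1.63), Atf3 (4.13 ± 1.41) and Fosb (0.455 ± 0.124). Egr1 and Fosl1 did not differ beyond their spread, and the libraries of the other neighbours did not overlap, apart from Fosl1 and Atf3 (lowest Fosl1 library 5.47, highest Atf3 library 5.71). In Ad-Cre-GFP the 4 most abundant kept their order, at 148 ± 9.54 for Jund, 107 ± 0.259 for Fosl2, 84.3 ± 2.12 for Junb and 31.8 ± 0.771 for Jun. Below them the order changed to Fosl1 (7.42 ± 0.561), Atf3 (6.24 ± 0.409), Fos (5.20 ± 0.864), Egr1 (1.76 ± 0.276) and Fosb (0.836 ± 0.0805). Libraries of Fos and Atf3 touched, with Fos at up to 5.82 and Atf3 down to 5.82. The order of Jund and Fosl2 rests on the length used. Fosl2 has 9680 exon bases but a longest transcript of 6537 bases, and Jund has 1668 by both. Per base of longest transcript, Fosl2 would stand above Jund in every Ad-Cre-GFP library and below it in every Ad-GFP library.

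Fosl2 made up most of the FOS family transcripts in both groups, and Jund had the largest share of the JUN family transcripts. Per length, Fosl2 was 86.2% ± 1.34 of the FOS family level in Ad-GFP and 88.9% ± 0.344 in Ad-Cre-GFP. The share of Fos was 9.14% ± 1.04 and 4.30% ± 0.711, and that of Fosb 0.276% ± 0.0805 and 0.691% ± 0.0642. The share of Fosl1 was 4.37% ± 1.08 and 6.13% ± 0.465. In the JUN family, the share of Jund was 61.6% ± 0.130 in Ad-GFP and 56.0% ± 1.43 in Ad-Cre-GFP, that of Junb 25.5% ± 0.345 and 31.9% ± 1.29, and that of Jun 12.9% ± 0.288 and 12.0% ± 0.2495. The summed FOS family level on the TPM scale was 162 to 169.8 in Ad-GFP and 121 in each Ad-Cre-GFP library, and the JUN family sum was 373 to 395 and 253 to 274. The ratio of JUN to FOS family sums was 2.27 to 2.39 in Ad-GFP and 2.08 to 2.27 in Ad-Cre-GFP, where the groups touched. The sums and the ratio were computed with all exons only. The size of the ratio depends on the length taken for Fosl2 (9680 exon bases, longest transcript 6537 bases). These shares are descriptions and were given no test.

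**Figure D3:**
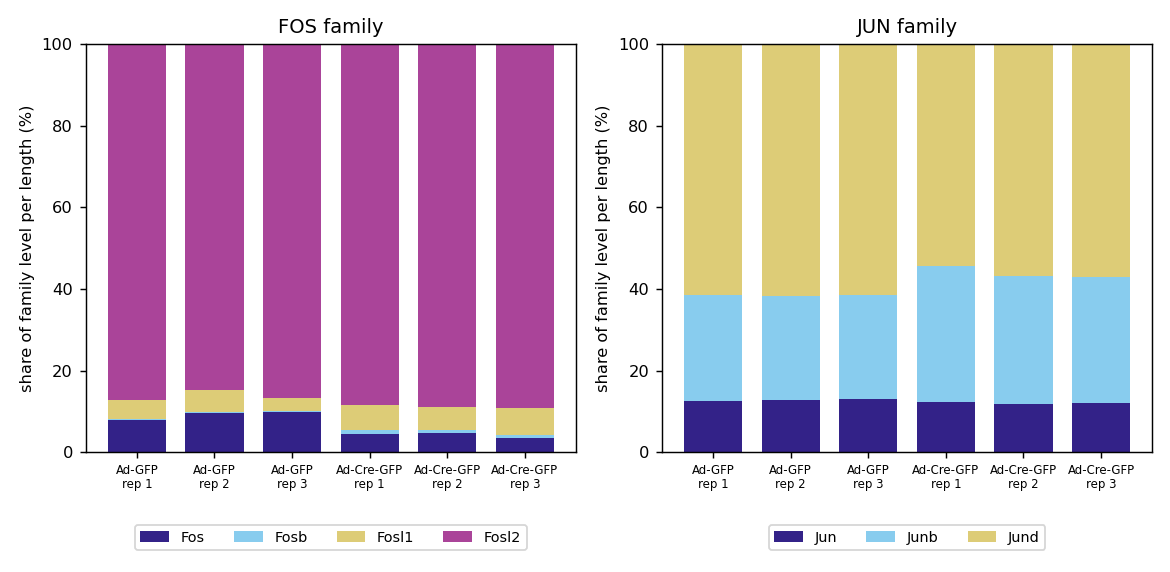
Share of each gene in the summed per-length level of its family (vertical axis, percent), for each of the 6 libraries; left the FOS family, right the JUN family. Fosl2 fills 84.7% to 89.2% of the FOS bars, and Jund 54.4% to 61.8% of the JUN bars.

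The other partners of AP-1 proteins moved in both directions. Of 13 listed basic leucine zipper partners, 8 were tested, of which 2 rose, 5 fell and 1 was not called, with a median log2 change of -0.17. The transcripts of the ATF proteins that pair with JUN fell slightly, Atf2 from 83.8 ± 2.43 to 67.8 ± 1.67 CPM (-0.30 ± 0.04, adjusted p = 1.65e-07) and Atf7 from 63.8 ± 2.65 to 52.1 ± 0.961 CPM (-0.29 ± 0.04, adjusted p = 1.88e-06). Of the small MAF genes, whose proteins lack an activation domain, Maff and Mafk rose and Mafg fell. Maff was at 24.8 to 25.9 CPM in Ad-GFP and 47.8 to 49.2 CPM in Ad-Cre-GFP. Mafk rose by 0.77 ± 0.04, and Mafg fell by 0.17 ± 0.04 (adjusted p = 0.000588). The large MAF gene Maf, named after its values were seen, was at 31.2, 30.1 and 41.7 CPM in Ad-GFP and at 4.14, 4.92 and 5.15 CPM in Ad-Cre-GFP (-2.85 ± 0.18, adjusted p = 9.3e-06). Batf, Batf2, Batf3 and Nrl had at most 6 counts in any library and were not tested.

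Other immediate-early genes went in both directions. Of 28 listed, 26 were tested, of which 13 rose, 10 fell and 3 were not called, with a median log2 change of 0.22. Dusp1, a phosphatase that inactivates MAP kinases and is induced by the same signals as Fos, was at 21.4, 22.1 and 21.1 CPM in Ad-GFP and at 133, 131 and 139 CPM in Ad-Cre-GFP. It rose by 2.64 ± 0.04 (adjusted p = 1.89e-22), opposite to Egr1 in the same libraries. The YAP target genes Ccn1 and Ccn2, which are also on this list, rose by 1.74 ± 0.04 and 1.71 ± 0.03. Gadd45b (1.23 ± 0.03) and Myc (0.80 ± 0.03) rose as well. Socs3, a feedback inhibitor of cytokine receptors, fell from 29.1 ± 1.38 to 9.31 ± 0.408 CPM (-1.65 ± 0.06) and Trib1 from 87.5 ± 1.46 to 41.8 ± 0.634 CPM (-1.06 ± 0.04). Nr4a1 rose, from 2.97 to 3.98 CPM in Ad-GFP to 4.72 to 5.05 CPM in Ad-Cre-GFP (0.51 ± 0.13, adjusted p = 0.00122). Zfp36 was not called (-0.06 ± 0.06, adjusted p = 0.349). Ier2 had a log2 change of -0.16 ± 0.06 (adjusted p = 0.021), but DESeq2 did not call it (adjusted p = 0.088), nor did edgeR without Ad-GFP replicate 2 (adjusted p = 0.263) or Ad-Cre-GFP replicate 3 (adjusted p = 0.108).

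**Figure D4:**
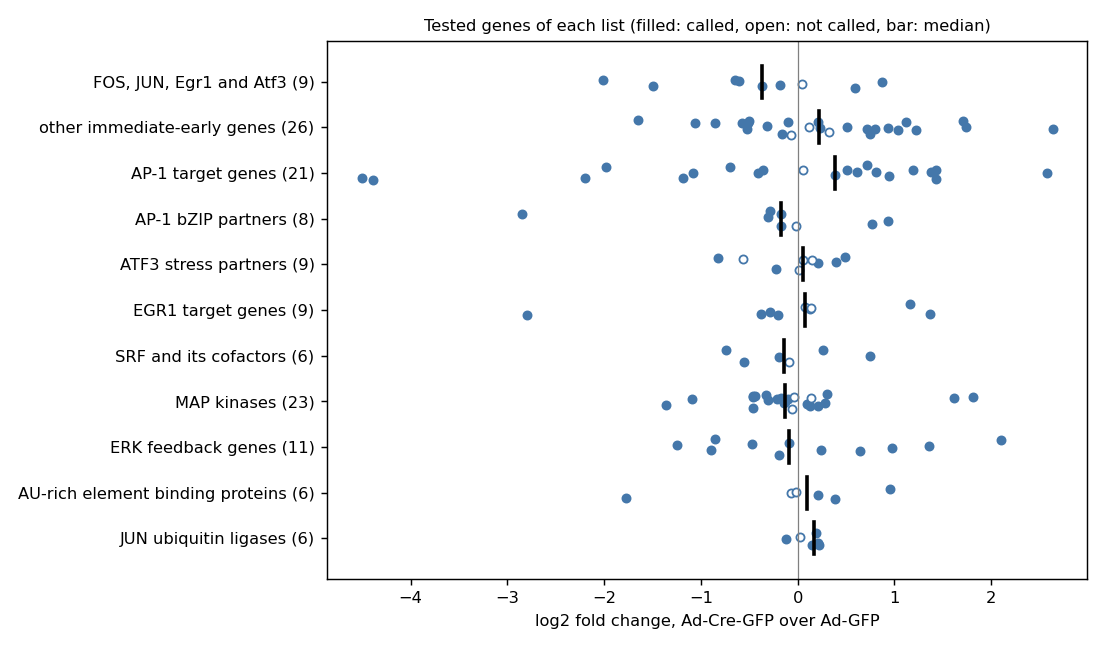
Log2 fold change, Ad-Cre-GFP over Ad-GFP (horizontal axis), of every tested gene of the 9 and of 10 gene lists (rows, number tested in brackets); filled points were called, open points were not, and vertical bars are list medians. The median of the 9 genes is -0.37 and that of the other immediate-early genes 0.22, and each list shown holds called genes on both sides of 0.

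SRF and its cofactors, which control Egr1, Fos, Fosb and Junb, also split. Of 6 tested, 2 rose, 3 fell and 1 was not called (median -0.14). Srf rose by 0.26 ± 0.04, and Mrtfa, an actin-regulated cofactor, rose from 79.3 ± 1.03 to 133 ± 3.63 CPM (0.74 ± 0.03, adjusted p = 1.42e-14). Of the ternary complex factor genes, through whose proteins ERK acts on SRF, Elk3 fell from 105 ± 3.88 to 63.2 ± 1.23 CPM (-0.74 ± 0.04, adjusted p = 7.44e-14). Elk4 fell by 0.19 ± 0.05, and Elk1 was not called (-0.09 ± 0.05, adjusted p = 0.12). Mrtfb fell by 0.55 ± 0.05.

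Genes known as AP-1 targets changed in both directions. Of 26 listed, 21 were tested, of which 11 rose and 9 fell (median 0.39). The stromelysin gene Mmp3 and the collagenase gene Mmp13, classical AP-1 targets, fell, whereas Mmp1a, at 0 counts, and Mmp10, with at most 8 counts, were not tested. Mmp3 was at 10.1, 9.90 and 12.9 CPM in Ad-GFP and at 0.376, 0.602 and 0.438 CPM in Ad-Cre-GFP (-4.51 ± 0.18, adjusted p = 2.04e-15). Mmp13, named after its values were seen, was at 9.16, 9.66 and 13.1 CPM and at 2.43, 2.44 and 3.14 CPM (-1.98 ± 0.15, adjusted p = 1.55e-09). The chemokine gene Cxcl1 fell by 2.20 ± 0.06. In contrast, the cyclin D1 gene Ccnd1 rose from 229 ± 10.3 to 596 ± 2.78 CPM (1.38 ± 0.03), and the urokinase receptor gene Plaur rose by 0.95 ± 0.03. Several of these genes are also targets of YAP or other factors.

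Of 10 listed EGR1 target genes, 9 were tested, of which 3 rose and 4 fell (median 0.08). Pdgfb, a growth factor gene, rose from 64.0 ± 1.86 to 166 ± 3.36 CPM (1.37 ± 0.03), and F3, the tissue factor gene, from 52.9 ± 1.47 to 118 ± 3.99 CPM (1.16 ± 0.04), while Tgfb1 fell by 0.38 ± 0.06.

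The genes that act with Atf3 in the stress response went in both directions. Of 9 tested, 3 rose, 2 fell and 4 were not called (median 0.06). Sesn2 rose by 0.40 ± 0.05 and Ppp1r15a by 0.49 ± 0.07, and Ddit3, which encodes CHOP, by 0.21 ± 0.06. Cebpb fell from 95.6 ± 3.23 to 54.0 ± 2.95 CPM (-0.82 ± 0.04, adjusted p = 1.12e-13). Atf4, an upstream activator of Atf3, was at 0.15 (adjusted p = 0.147), and 4 of 15 alternatives called it: no filter on low counts (0.16, adjusted p = 0.000551), no robust dispersion (0.15, adjusted p = 0.0192), the replicate block (0.15, adjusted p = 0.0387) and leaving out Ad-GFP replicate 2 (0.23, adjusted p = 8.99e-06).

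The genes whose level was most like that of 4 members were sought among named, tested genes with a mean of at least 5 CPM, by Pearson's r of log2 CPM over the 6 libraries. For Egr1 they were Aig1 (r = 0.9997), Tes (0.9994) and Laptm4a (0.9992), and for Fos H3f3c (0.9994), Nat2 (0.9985) and Ganc (0.9984). For Atf3 they were Cc2d1b (0.9951), Rnpep (0.9866) and Msrb1 (0.9852), and for Fosl1 Txn1 (0.9941), Rpl14-ps1 (0.9747) and Idh3g (0.974). The matches of Fosl1 had log2 changes of 0.02 to 0.03 between the groups, so that its r follows the variation between replicates. For the other members such an r includes the difference between the groups. These r are the highest values of a search over all such genes.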

How the data were processed

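Poly(A)-enriched RNA was sequenced in 6 libraries. The authors deposited raw read counts for each gene, 1 column for each alignment file, per the file headers. Build GRCm38 and the tools kallisto 0.46.2 and sleuth 0.30.1 are listed in the submitters' processing notes; the sources used here give no aligner, counter or strand setting. Nothing in the labels says that replicates were separate cultures, and p-values therefore reflect only the spread of these samples, which may be technical. Replicates differed by more than sampling noise (chi-square per gene 2.04 to 4.27, over genes with 20 or more counts in a pair). This does not show that they were separate cultures. The common coefficient of variation between replicates, beyond sampling noise, was small at 3.06%.

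Symbols came from GENCODE M21 (48058 of 48440 IDs matched), promoter sequences from RefSeq. Counts were filtered with filterByExpr, TMM-scaled and tested in edgeR 4.0.16 (R 4.3.3) by its quasi-likelihood test (robust, Benjamini-Hochberg over 14811 genes, called under 0.05); SE is the log2 change over the square root of F. The test was checked on simulated data, in which far fewer genes changed than were called here. Near-identical transcripts of other genes (200 bases, 90% identity, minimap2 2.31) were found only for Fosl1 and Jund, at their antisense partners. Alternatives included DESeq2 1.42.0 and limma-voom (limma 3.58.1).

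Members and lists were chosen with earlier results of these data known. Of each list, the 2 called genes with the smallest adjusted p in each direction and a mean of at least 5 CPM could be named; others are examples chosen after their values were seen, and some listed genes are not reported here. Lists of heat shock genes and mitochondrial mRNAs, and of immune and endothelial markers, were also counted.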

Additional observations from a re-analysis of the deposited data

How the results depend on the processing

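Each of the 9 genes was refitted under 15 alternatives (other size factors, upper-quartile scaling, DESeq2, limma-voom, no filter, a filter at a mean of 1 CPM, no robust dispersion, a replicate block, thinning to the smallest total, and leaving out each library). In 134 of these 135 fits the direction and the side of the threshold were as reported. The exception was Fosl1, at -0.10 without Ad-GFP replicate 3. The number of the 9 called higher was 2 and the number called lower 6 under every alternative. Leaving out a library gave -2.11 to -1.88 for Egr1, -1.60 to -1.36 for Fos, 0.71 to 1.11 for Fosb, -0.10 to 0.23 for Fosl1 and 0.40 to 0.95 for Atf3, and 9932 to 10124 called genes in all. Among 1140 fits of other named genes, 5 lost and 4 gained a call and none changed direction; the gains were all of Atf4 and 3 of the losses of Ier2, with the values given above, and mt-Nd6 lost its call without Ad-GFP replicate 3 and Itch without Ad-Cre-GFP replicate 1. The cause was not tested.

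Whether the replicate numbers of the titles pair the libraries is not settled. Deviations of genes from their group means correlated weakly between same-numbered libraries (0.127, 0.0836 and 0.0585). These values were above those of all other combinations (-0.157 to 0.0449). With the replicate block 10478 genes were called against 10344, and no call among the 9 changed (Egr1 -2.02, Fos -1.49, Fosb 0.88, Atf3 0.61). With the length of the longest transcript in place of all exons, the share of Fosl2 in its family was 89.2% and 91.2%, that of Fos 7.13% and 3.32%, that of Junb 30.4% and 37.3% and that of Jund 57.6% and 51.6%, in Ad-GFP and Ad-Cre-GFP. Depth limits Fosb most: 3 counts, the limit that a count of 0 allows, were 0.0990 to 0.161 CPM.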

Other observations

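Regulators of AP-1 outside transcription also changed at the level of their transcripts. Of 6 proteins that bind the AU-rich elements of short-lived mRNAs such as Fos, 3 rose, 1 fell and 2 were not called. Zfp36l1, which promotes decay, fell from 89.1 ± 2.95 to 26.0 ± 1.19 CPM (SD, n = 3; log2 change -1.78 ± 0.04, edgeR adjusted p = 5.38e-19), and its relative Zfp36l2 rose from 36.6 ± 2.04 to 71.3 ± 2.36 CPM (0.96 ± 0.05). Elavl1, which encodes the stabilizing protein HuR, rose by 0.39 ± 0.03. Of 6 genes of ubiquitin ligases that act on JUN protein, 4 rose and 1 fell, all by small amounts, with Cop1 at 0.22 ± 0.05 and Itch at -0.12 ± 0.04.

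The MAP kinase cascade upstream of Fos and Egr1 had 7 rises and 13 falls among 23 tested genes (median -0.13). The MEK1 gene Map2k1 fell by 0.46 ± 0.03, and Rps6ka3 fell by 0.46 ± 0.03, while Rps6ka2, another ribosomal S6 kinase, rose by 1.62 ± 0.08. ERK feedback genes had 5 rises and 6 falls among 11, with Dusp4 (0.97 ± 0.04) and Dusp5 (1.36 ± 0.06) higher and Spry4 (-1.25 ± 0.08) and Spred2 (-0.89 ± 0.05) lower. Kinase activity is not measured by transcript counts.

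Heat shock genes, which handling of cells can induce, had 6 rises and 3 falls among 10, with Hspd1 at 0.98 ± 0.03 and the inducible Hspa1b at -0.47 ± 0.06. Mitochondrial mRNAs had 6 rises and 2 falls among 13, and mitochondrial genes held 2.71% to 3.03% of counts in every library. Immune cell markers summed to 10.99 to 13.2 CPM in Ad-GFP and 6.66 to 7.30 CPM in Ad-Cre-GFP, with 1 fall (Cd14) among 2 tested, and both tested endothelial markers rose. The part of these in the changes of Egr1, Fos and Atf3 was not tested.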
